A study of Mus musculus with 6 samples.

Results

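Interferon response and antigen presentation genes were followed in RNA of mouse retina as a set of 31 genes, chosen by symbol from the 55450 genes of the deposited table. Each of the 31 symbols was found once. The study compared retinas of Myrf +/− mice, labelled Myrf-kd (3 libraries), with those of wild-type mice, labelled WT (3 libraries). All 6 libraries came from C57BL/6 mice aged 8 weeks. Myrf encodes a membrane-anchored transcription factor best known from oligodendrocytes. The labels do not say how the allele was altered, and they do not say that each library is a separate animal, so p-values measure the spread between these libraries, part of which may be technical.

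Interferons are cytokines that bind receptors on the cell surface and signal through the kinases Jak1 and Tyk2. These activate transcription factors, among them Stat2, which joins Irf9 to bind the interferon-stimulated response element (ISRE) in promoters of antiviral genes. The same signals raise the machinery of class I antigen presentation, in which immunoproteasome subunits cut proteins, the Tap transporter moves the peptides into the endoplasmic reticulum, and tapasin loads them onto a heavy chain paired with beta-2 microglobulin. Neural retina is known for a low basal level of this machinery, and microglia are its resident immune cells.

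The ISRE is the sequence feature that the first of these steps reads, so it was looked for in the start-site windows of the members. RefSeq promoters (build GRCm38.p6, 250 bases before to 50 bases after a start site) were at hand for 27 of the 31 genes, and Oas2, Usp18, Ifi27 and Tap2 had no entry. An ISRE core, read as GAAA, any 2 bases and GAAA again on either strand, was present for 13 of the 27 genes (48.1%), against 3.99% of the 27025 genes with such windows. These 13 are B2m, Bst2, Cxcl10, Ddx58, Gbp2, Gbp3, Ifih1, Ifit1, Ifit3, Isg15, Oas1a, Rsad2 and Stat2. A core of the gamma-activated sequence (GAS), TTCNNNGAA, which reads the same on both strands, was present for 6 of the 27 genes (22.2%), against 9.55% of all genes. They are Bst2, Ifi35, Ifit2, Irf1, Oas1a and Psmb8. A match is a run of letters and was not tested as a binding site.

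The 250 bases before the start site are shown for Ifit3, Gbp2 and Stat2, which had the smallest p-values of the members, and for Gbp3, the neighbour of Gbp2. Each is on the plus strand of GRCm38.p6, at chr19:34583279-34583528 for Ifit3, chr3:142620413-142620662 for Gbp2, chr3:142559794-142560043 for Gbp3 and chr10:128270248-128270497 for Stat2. Capitals mark ISRE cores, which here all lie on the minus strand and so read as the reverse complement.
Ifit3: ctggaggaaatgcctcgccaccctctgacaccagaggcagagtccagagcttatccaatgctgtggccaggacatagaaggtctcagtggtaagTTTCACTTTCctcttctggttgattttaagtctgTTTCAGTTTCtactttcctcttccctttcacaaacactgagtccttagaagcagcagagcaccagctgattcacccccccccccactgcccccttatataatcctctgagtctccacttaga
Gbp2: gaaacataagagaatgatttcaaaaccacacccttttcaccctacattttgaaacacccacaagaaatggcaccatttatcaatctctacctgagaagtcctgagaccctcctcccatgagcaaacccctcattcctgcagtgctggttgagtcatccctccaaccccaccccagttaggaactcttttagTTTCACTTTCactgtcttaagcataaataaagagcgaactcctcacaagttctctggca
Gbp3: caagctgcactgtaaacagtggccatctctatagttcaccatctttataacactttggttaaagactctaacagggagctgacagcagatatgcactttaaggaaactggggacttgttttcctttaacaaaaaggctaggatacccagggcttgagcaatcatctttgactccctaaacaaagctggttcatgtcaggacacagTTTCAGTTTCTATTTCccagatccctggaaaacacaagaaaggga
Stat2: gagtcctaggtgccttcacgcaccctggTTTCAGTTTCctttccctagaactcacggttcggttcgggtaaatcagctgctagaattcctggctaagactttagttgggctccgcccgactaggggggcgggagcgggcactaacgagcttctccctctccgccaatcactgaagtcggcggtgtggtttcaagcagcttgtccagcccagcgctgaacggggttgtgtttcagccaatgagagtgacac
Ifit3 held 2 cores, beginning 156 and 122 bases before the start. Gbp2 held 1 core 59 bases before the start, and Gbp3 held 2 overlapping cores at 45 and 39 bases. In the deposited table Gbp2 begins at 142620602, upstream of this RefSeq start, so its core lies inside the gene as listed there. The single core of Stat2 lay farther out, at 222 bases. A second window of Gbp3, at another start site, held 0 cores.

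**Figure D1:**
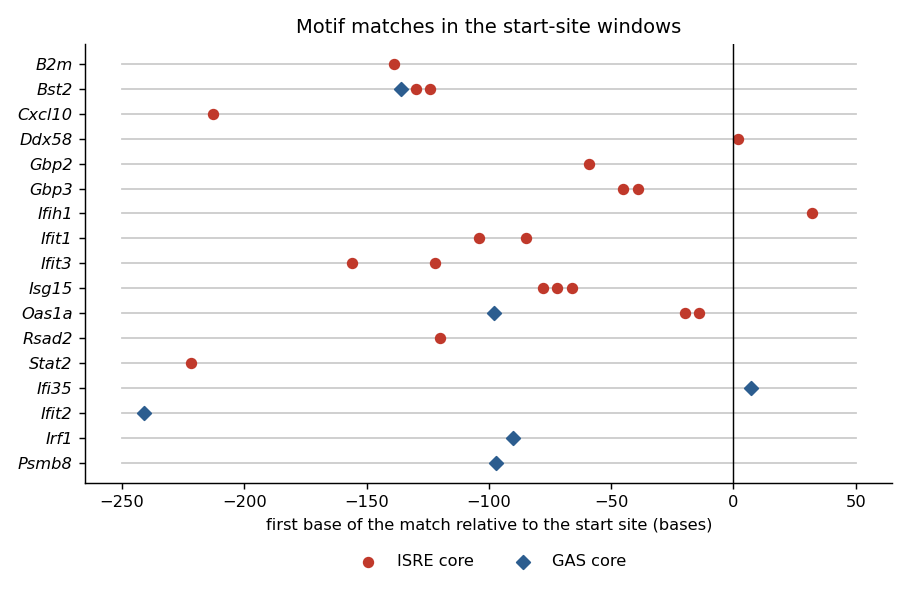
Position of each ISRE core (circles) and GAS core (diamonds) in the RefSeq start-site window of the members that hold one, in bases from the start site at 0. Of the 13 genes with an ISRE core, only Ddx58 and Ifih1 have it after the start site.

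Library totals lay between 50695091 and 70298511 units of estimated counts, where about 4 units stand for 1 sequenced fragment. Levels are given in FPKM, which scale for gene length and depth, so that genes can be compared with each other. The targeted gene Myrf had 0.279, 0.382 and 0.351 FPKM in libraries 1, 2 and 3 of Myrf-kd and 0.359, 0.397 and 0.463 FPKM in those of WT. Those groups overlap, and with the altered stretch of Myrf not named in the labels, this level does not check them. Myrf-kd 3 stood apart from the other libraries, with a score of 43.8 on the first principal component where the others lay between −17.3 and 10.8. Xist and Y-linked genes marked Myrf-kd 3 and WT 3 as female and the remaining 4 as male.

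Retina was the dominant tissue by its defining markers, with the rod transducin gene Gnat1 at a mean of 3202 FPKM over the 6 libraries. The Mueller glia gene Rlbp1 had a mean of 92.2 FPKM. Of the immune cells, the microglial genes Cx3cr1 and P2ry12 had means of 0.369 and 0.450 FPKM, and the pan-leukocyte gene Ptprc 0.0132 FPKM. The T cell genes Cd3e, Cd3d and Cd3g had 0 units in every library, as did Nkg7 and Gzma, which in a library of this depth allows up to 3 fragments each. The B cell gene Cd79a and the neutrophil gene S100a8 had means of 0.0663 and 0.141 FPKM, and the endothelial gene Pecam1 2.29 FPKM.

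The 17 microglia and macrophage markers summed to between 32.3 and 36.8 FPKM in Myrf-kd and between 34.2 and 36.1 FPKM in WT, so the groups overlapped. Sums for lymphocytes, neutrophils, endothelium and mural cells, blood, Mueller glia and ganglion cells overlapped as well. The 9 lens markers summed to 0.752, 0.302 and 32.7 FPKM in Myrf-kd 1, 2 and 3 and to 11.1, 6.87 and 12.85 FPKM in WT 1, 2 and 3, so that Myrf-kd 3 lay above and the other Myrf-kd libraries below every WT library. The cornea and rod lists did not overlap. The 8 cornea and surface epithelium markers summed to 0.553, 3.01 and 2.31 FPKM in Myrf-kd 1, 2 and 3 and to 7.53, 11.96 and 7.60 FPKM in WT 1, 2 and 3. Of these 8 markers 3 were tested, all with lower estimates, and the keratocyte gene Kera had 0 units in every library but WT 3. The 8 rod markers summed to between 7010 and 7612 FPKM in Myrf-kd and between 7727 and 10140 FPKM in WT. All 8 rod markers were tested, 2 with higher and 6 with lower estimates (median log2 fold change −0.052). Only 1 of them was without overlap by itself, so the sum does not speak for each rod gene. The part of the lens, cornea and rod lists in the results below was not tested. In RNA of whole retina, fewer cells of a type and less RNA per cell cannot be told apart.

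The members lay low. Over the 6 libraries 2 of the 31 had a mean of at least 10 FPKM, 16 lay between 1 and 10, 9 between 0.1 and 1, and 4 below 0.1, with a median of 1.25 FPKM. The class I chains B2m and H2-D1 were at the top and the chemokine Cxcl10 and the antiviral genes Oas2, Ifi44 and Oas1a at the bottom. The 18 members with a mean of at least 1 FPKM entered the test, out of 13673 genes in all. The other 13 are given by their values, being below this filter.

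**Figure D2:**
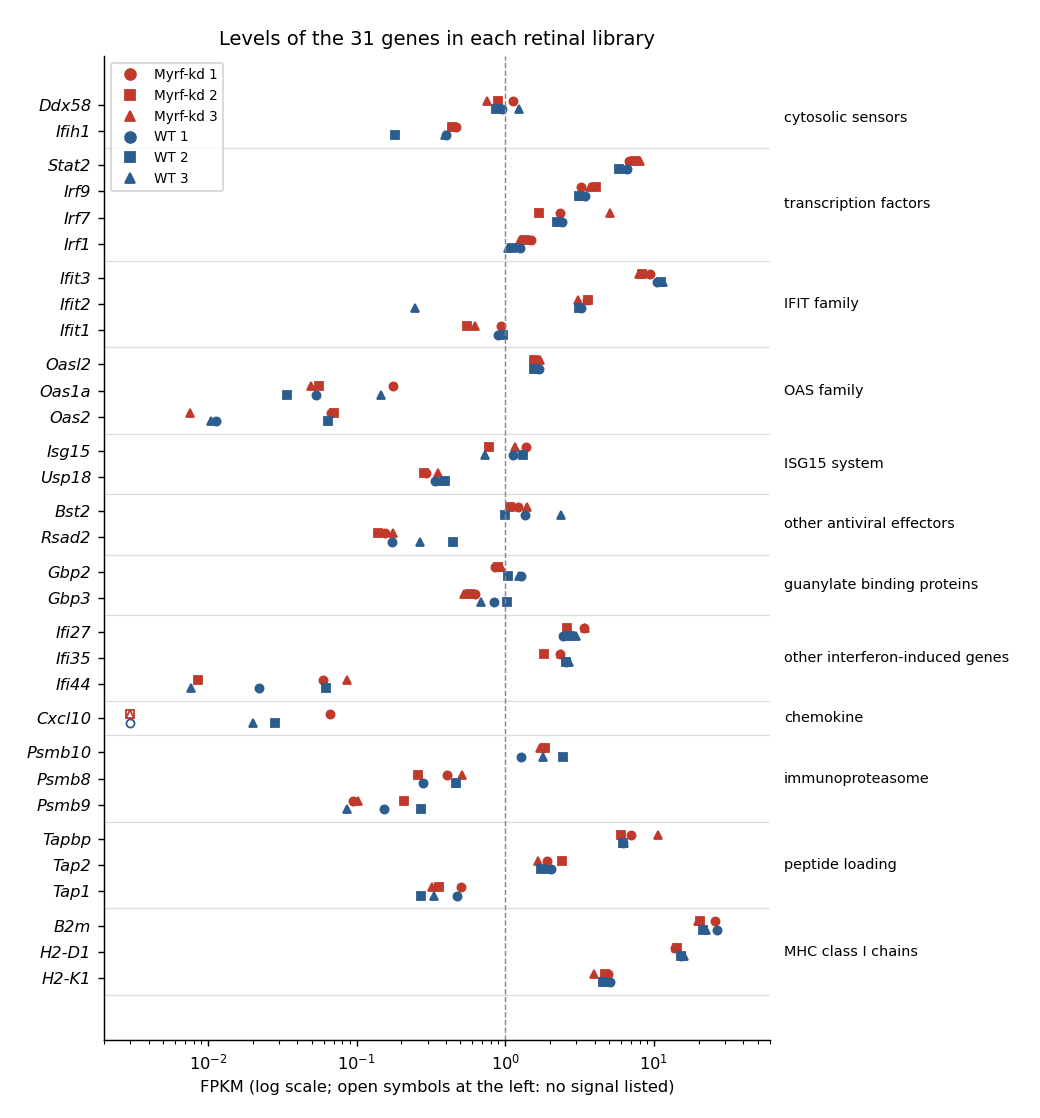
FPKM of each of the 31 genes in each library on a log scale, with Myrf-kd in red, WT in blue, and symbols for replicates 1, 2 and 3. The dashed line marks the mean of 1 FPKM required for testing, and the 2 genes above 10 FPKM are the class I chains B2m and H2-D1.

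None of the 18 tested members passed the test between Myrf-kd and WT (0 by the quasi-likelihood test of edgeR, Benjamini-Hochberg adjusted over all genes, 0 by DESeq2 and 0 by limma). Over all genes the same edgeR test called 6 (0.0439%). At an unadjusted p under 0.05 there were 3 members by edgeR, against 7.49% of all genes tested, with 2 lower in Myrf-kd (Ifit3 and Gbp2; 3.73% of all genes) and 1 higher (Stat2; 3.76%). DESeq2 and limma on log2(FPKM + 1) placed 2 and 3 members there, beside 1077 and 1017 of all 13673 genes. Without Myrf-kd 3, edgeR placed 2 members there, beside 903 of all genes, and called 0 members. The members were split evenly, 9 with a higher and 9 with a lower estimate, and their median log2 fold change was 0.022 (all genes, 0.0041). Over all genes 6975 estimates were higher and 6698 lower. The 4 transcription factors had higher estimates in Myrf-kd, of which Irf7 turned to −0.21 without Myrf-kd 3, and the 3 class I chains had lower ones. A difference between roles was not tested.

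The groups did not overlap in 6 of the 18 tested members, where 14.5% of all genes tested did not overlap. Stat2 and Irf1 lay higher in Myrf-kd (7.96% of all genes), and Ifit3, Gbp2, Ifi35 and H2-D1 lower (6.57%). Of the members below the filter, Ifih1 lay higher without overlap and Gbp3 lower. The share without overlap among all genes below the filter was not computed. With 3 libraries against 3, each of these 8 genes had p = 0.1 in the exact permutation test (two-sided), the smallest it can give. Groups of this size without overlap always give this p, so it adds nothing to the lack of overlap.

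**Figure D3:**
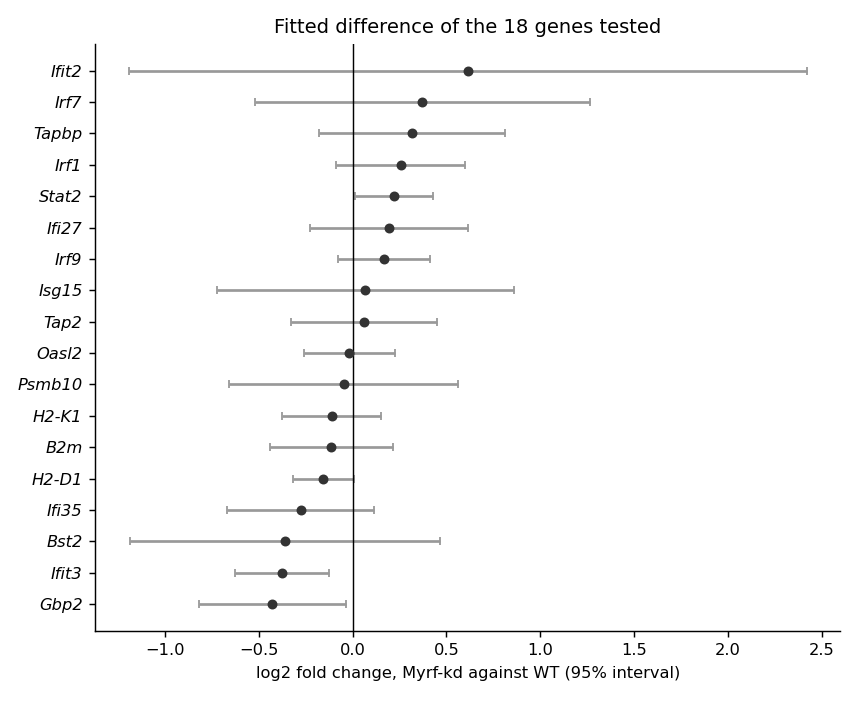
Fitted log2 fold change of the 18 tested members, Myrf-kd against WT, with 95% intervals from edgeR's quasi-likelihood fit before any adjustment for multiple tests. The intervals of Ifit3, Gbp2 and Stat2 leave out 0, and that of Ifit2 is the widest, from −1.19 to 2.42.

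The sensors of cytosolic RNA come first in the pathway. Ddx58, which encodes RIG-I, was at 1.14, 0.894 and 0.751 FPKM in Myrf-kd 1, 2 and 3 and at 0.956, 0.861 and 1.23 FPKM in WT 1, 2 and 3. The groups overlapped. Ifih1, which encodes MDA5, was at 0.463, 0.441 and 0.448 FPKM in Myrf-kd and at 0.399, 0.180 and 0.391 FPKM in WT. WT 2, the shallowest library, was the low value, and the other WT libraries lay just under the Myrf-kd range. Between 22 and 72 fragments per library lay behind Ifih1. Without the filter its log2 fold change was 0.46 ± 0.29 SE (edgeR adjusted p = 0.718).

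The transcription factors carry the signal to the nucleus. The 4 of them summed to 13.9, 14.6 and 18.1 FPKM in Myrf-kd 1, 2 and 3 and to 13.7, 12.3 and 12.97 FPKM in WT 1, 2 and 3, without overlap. Myrf-kd 1 and WT 1 nearly met in this sum. Stat2 was its largest part and did not overlap by itself, so the sum is not separate from that gene. The sum of Myrf-kd 3 included 5.03 FPKM of Irf7. Stat2 (ENSMUSG00000040033, chromosome 10, 128270559 to 128292849, plus strand, GRCm38), a subunit of the complex that binds the ISRE, was at 6.83, 7.52 and 8.05 FPKM in the Myrf-kd libraries 1, 2 and 3. The WT libraries 1, 2 and 3 had 6.61, 5.85 and 6.50 FPKM. All Myrf-kd libraries lay above all WT libraries, the closest pair being Myrf-kd 1 and WT 1. Fitted to the counts, Myrf-kd stood at 117% of WT (95% interval 101% to 135%), a log2 fold change of 0.22 ± 0.09 SE with an edgeR adjusted p of 0.666. Without Myrf-kd 3 the log2 fold change was 0.16.

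Irf9 (ENSMUSG00000002325, chromosome 14, 55603571 to 55610030), the DNA-binding partner of Stat2, was at 3.26, 4.06 and 3.74 FPKM in Myrf-kd and at 3.42, 3.14 and 3.17 FPKM in WT. Myrf-kd 1 lay below WT 1, so the groups overlapped (log2 fold change 0.17 ± 0.10 SE, edgeR adjusted p = 0.715). The table lists Rnf31 on the same strand over part of the gene. Irf1 (ENSMUSG00000018899, chromosome 11, 53770014 to 53777323), a factor induced by interferon gamma that acts on class I genes, was at 1.48, 1.37 and 1.26 FPKM in Myrf-kd and at 1.25, 1.11 and 1.04 FPKM in WT. Its groups did not overlap, but the lowest Myrf-kd and the highest WT library nearly met (log2 fold change 0.26 ± 0.15 SE, edgeR adjusted p = 0.703).

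Irf7 encodes the factor that amplifies type I interferon. It was at 2.33, 1.69 and 5.03 FPKM in Myrf-kd 1, 2 and 3 and at 2.41, 2.24 and 2.27 FPKM in WT. Myrf-kd 3 was 2.09-fold above the next library, while the other Myrf-kd libraries held the lowest value and one inside the WT range. The log2 fold change of 0.37 ± 0.38 SE (edgeR adjusted p = 0.803) became −0.21 without Myrf-kd 3, so the direction rested on that library. Phrf1 overlaps Irf7 on the other strand, and strand is not known to have been kept.

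The Ifit genes form a cluster on chromosome 19 and encode proteins that bind foreign RNA. Ifit3 (ENSMUSG00000074896, chromosome 19, 34583531 to 34588731, plus strand) was at 9.45, 8.36 and 7.99 FPKM in Myrf-kd 1, 2 and 3 and at 10.4, 11.1 and 11.5 FPKM in WT 1, 2 and 3. No Myrf-kd library reached the WT range, and 262 to 404 fragments per library lay behind the values. Fitted to the counts, Myrf-kd stood at 77.0% of WT (95% interval 64.7% to 91.6%), a log2 fold change of −0.38 ± 0.11 SE. Ifit3 had the smallest p of the members, 0.00939 by edgeR, and did not pass (edgeR adjusted p = 0.666). Leaving out any single library kept its log2 fold change between −0.46 and −0.33.

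Ifit3b is a near copy of Ifit3, so fragments may be split between them. It was at 3.67 ± 0.127 FPKM in Myrf-kd, against 4.26 ± 0.498 FPKM in WT (SD, n = 3 each). The sum of both, formed after their values were seen, was 13.2, 12.1 and 11.5 FPKM in Myrf-kd and 14.1, 15.6 and 16.1 FPKM in WT. The order of the groups was the same in the sum as in Ifit3 alone, which made up the larger part of it. In Ifit3b by itself the groups overlapped, with Myrf-kd 1 above WT 1. Ifit1, below the filter, was at 0.936, 0.552 and 0.622 FPKM in Myrf-kd and at 0.890, 0.973 and 0.938 FPKM in WT, with 26 to 50 fragments per library. Its Myrf-kd 1 lay inside the WT range and the other Myrf-kd libraries below it.

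Ifit2 did not share this order. It was at 3.56, 3.60 and 3.08 FPKM in Myrf-kd 1, 2 and 3 and at 3.25, 3.12 and 0.248 FPKM in WT 1, 2 and 3. WT 3 was 12.4-fold below the next lowest library, with about 20 fragments, in the same library that held the highest Ifit3 level. The other 5 libraries lay close together. The log2 fold change of 0.61 ± 0.76 SE (edgeR adjusted p = 0.839) became 0.081 without WT 3. It was 1.14 with sex as a covariate, 1.14 with the replicate number as a block and 1.17 by limma on log2(FPKM + 0.1). Trim25, a ubiquitin ligase that activates RIG-I, named after its values were seen, was also lowest in WT 3, with a WT mean of 6.47 ± 2.76 FPKM against 7.82 ± 0.628 FPKM in Myrf-kd.

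The oligoadenylate synthetase genes encode sensors of double-stranded RNA. Oasl2, a synthetase-like member, was at 1.56, 1.55 and 1.72 FPKM in Myrf-kd and at 1.68, 1.56 and 1.59 FPKM in WT. The groups overlapped fully, and its fitted level was 98.7% of WT with an interval from 83.5% to 117%. Oas1a and Oas2 had between 1 and 6 fragments per library each, too few for a fold. In the ubiquitin-like Isg15 system, Isg15 itself was at 1.39, 0.783 and 1.16 FPKM in Myrf-kd and at 1.12, 1.31 and 0.728 FPKM in WT. It overlapped, at 11 to 20 fragments per library, and its interval reached from 60.5% to 181% of WT. Usp18, the protease that removes Isg15 and dampens the receptor, had means of 0.310 ± 0.0363 FPKM in Myrf-kd, against 0.367 ± 0.0292 FPKM in WT.

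Bst2 (ENSMUSG00000046718, chromosome 8, 71534255 to 71537456), the tetherin gene, was at 1.23, 1.07 and 1.41 FPKM in Myrf-kd 1, 2 and 3 and at 1.35, 0.997 and 2.37 FPKM in WT 1, 2 and 3. WT 3 was 1.68-fold above the next library and the other libraries were intermixed. The log2 fold change of −0.36 ± 0.35 SE (edgeR adjusted p = 0.793) became 0.064 without WT 3. Rsad2, which encodes viperin, was below the filter, at 0.155, 0.139 and 0.175 FPKM in Myrf-kd and at 0.172, 0.446 and 0.267 FPKM in WT. WT 1 lay inside the Myrf-kd range, and 11 to 28 fragments per library lay behind the values. Without the filter its log2 fold change was −0.92 ± 0.39 SE (edgeR adjusted p = 0.718).

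Gbp2 and Gbp3 are neighbouring genes on chromosome 3 for guanylate-binding proteins, GTPases known for attacking intracellular pathogens. Gbp2 (ENSMUSG00000028270, chromosome 3, 142620602 to 142638008) was at 0.855, 0.890 and 0.943 FPKM in Myrf-kd 1, 2 and 3 and at 1.28, 1.05 and 1.24 FPKM in WT 1, 2 and 3. Gbp3, below the filter, was at 0.629, 0.575 and 0.530 FPKM in Myrf-kd and at 0.836, 1.03 and 0.683 FPKM in WT. Both genes lay lower in every Myrf-kd library than in every WT library, with 34 to 63 fragments per library. Gbp2 was fitted at 74.3% of WT, with an interval from 56.6% to 97.4% (log2 fold change −0.43 ± 0.16 SE, edgeR adjusted p = 0.666). Without the filter, Gbp3 had a log2 fold change of −0.57 ± 0.23 SE (edgeR adjusted p = 0.718).

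The 2 genes summed to 1.48, 1.47 and 1.47 FPKM in Myrf-kd and to 2.11, 2.08 and 1.92 FPKM in WT. As each gene alone lay lower in Myrf-kd without overlap, the sums could not overlap, and they add nothing to the single genes. Both genes hold an ISRE core within the 250 bases shown. The sums of the cornea and rod markers were lower in the same libraries, and their part in this difference was not tested.

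Of the other interferon-induced genes, Ifi35 (ENSMUSG00000010358, chromosome 11, 101448407 to 101458698) was at 2.32, 1.83 and 2.39 FPKM in Myrf-kd and at 2.55, 2.57 and 2.70 FPKM in WT. Its groups did not overlap, with Myrf-kd 2 farthest from WT (log2 fold change −0.28 ± 0.16 SE, edgeR adjusted p = 0.703), and the log2 fold change was −0.16 without Myrf-kd 2. Ifi27 (ENSMUSG00000064215, chromosome 12, 103434211 to 103440239), a small mitochondrial protein gene, was at 3.37, 2.62 and 3.44 FPKM in Myrf-kd and at 2.43, 2.71 and 2.99 FPKM in WT. Myrf-kd 2 lay inside the WT range (log2 fold change 0.19 ± 0.18 SE, edgeR adjusted p = 0.786). Ifi44 had 1 to 10 fragments per library. The chemokine gene Cxcl10, which draws T cells into tissue, had 14, 0 and 0 units in Myrf-kd and 0, 4 and 5 units in WT, at most about 4 fragments, and no fold is given.

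**Figure D4:**
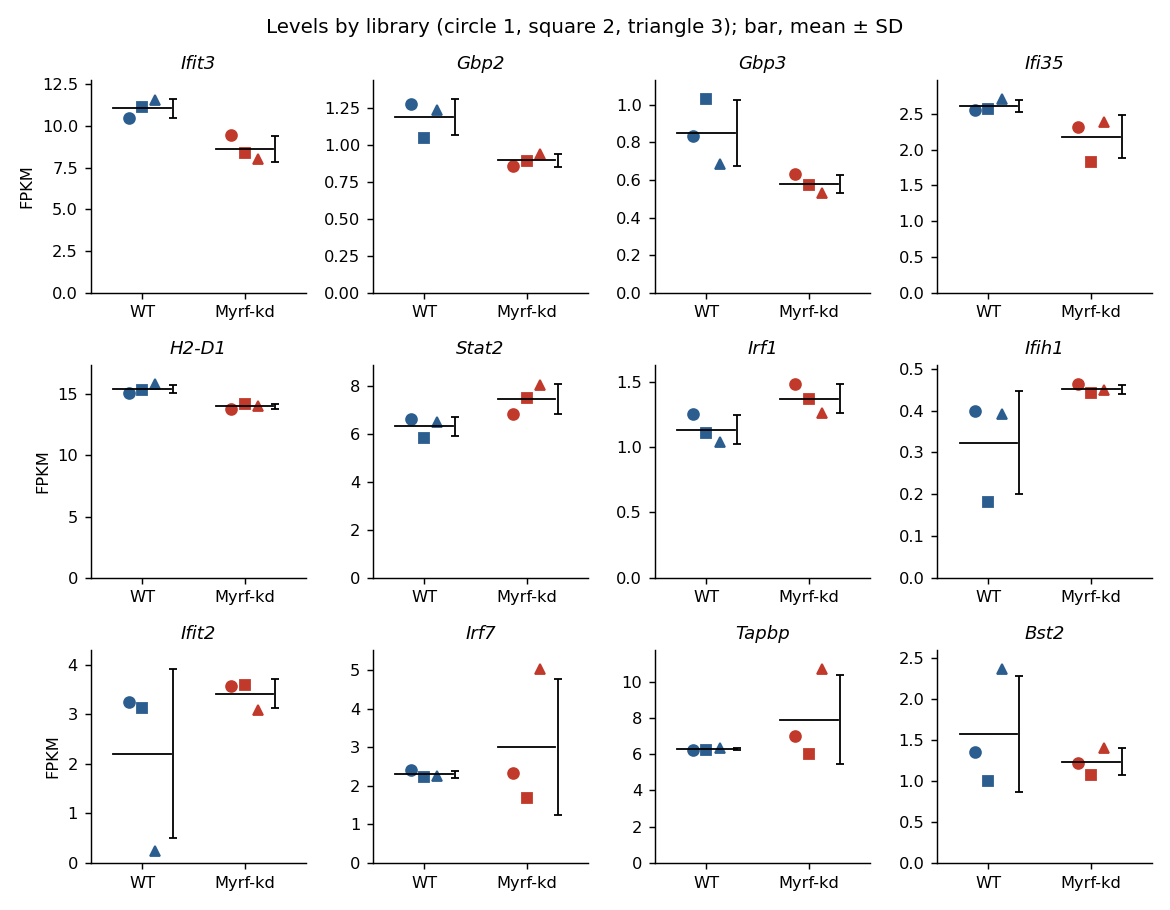
FPKM by library for the 8 members whose groups do not overlap (Ifit3 to Ifih1) and the 4 tested members in which the highest or lowest library is over 1.5-fold from the next (Ifit2, Irf7, Tapbp, Bst2), with mean and SD over 3 libraries. In Ifit2 and Bst2 the distant library is WT 3, and in Irf7 and Tapbp it is Myrf-kd 3.

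Antigen presentation begins at the proteasome, where 3 interferon-induced subunits replace the constitutive ones. Psmb10 was at 1.80, 1.85 and 1.72 FPKM in Myrf-kd and at 1.28, 2.44 and 1.78 FPKM in WT. The WT libraries enclosed the Myrf-kd libraries. Psmb8 and Psmb9 were below the filter, with Psmb8 at 0.392 ± 0.125 FPKM in Myrf-kd, against 0.404 ± 0.108 FPKM in WT and Psmb9 at 0.135 ± 0.0632 and 0.169 ± 0.0931 FPKM. The 3 immunoproteasome genes summed to 2.32 FPKM in Myrf-kd, against 2.41 FPKM in WT on average, and the 7 constitutive beta subunit genes to 188 and 185 FPKM. None of those 7 passed the test, with 4 higher and 3 lower estimates and a median log2 fold change of 0.0038. Psmb5, which Psmb8 replaces, was at 33.7 ± 3.03 FPKM in Myrf-kd, against 31.9 ± 0.212 FPKM in WT.

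The peptide loading genes summed to 9.45, 8.77 and 12.65 FPKM in Myrf-kd 1, 2 and 3 and to 8.74, 8.23 and 8.58 FPKM in WT 1, 2 and 3. The sum did not overlap, but Myrf-kd 2 and WT 1 were nearly equal. None of its 3 genes was free of overlap by itself, and Tapbp made up the larger part of it. Tapbp (ENSMUSG00000024308, chromosome 17, 33915899 to 33926197), which encodes tapasin, was at 7.02, 5.99 and 10.7 FPKM in Myrf-kd 1, 2 and 3 and at 6.23, 6.23 and 6.34 FPKM in WT. The WT libraries were nearly equal, and Myrf-kd 3 lay 1.52-fold above the next library. The log2 fold change of 0.32 ± 0.21 SE (edgeR adjusted p = 0.731) became 0.035 without Myrf-kd 3. Zbtb22 overlaps Tapbp on the same strand. The transporter subunit Tap2 was at 1.92, 2.42 and 1.66 FPKM in Myrf-kd and at 2.03, 1.73 and 1.91 FPKM in WT, with overlap. Its partner Tap1, which shares bases with Psmb9 on the other strand, had means of 0.395 ± 0.0974 and 0.359 ± 0.103 FPKM.

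The class I chains B2m and H2-D1 were the most abundant of the 31 genes by mean FPKM. B2m, the light chain, was at 25.7, 20.3 and 19.9 FPKM in Myrf-kd 1, 2 and 3 and at 26.6, 21.5 and 22.4 FPKM in WT 1, 2 and 3. The groups overlapped, and the fitted level was 92.5% of WT with an interval from 73.6% to 116%. H2-D1 (ENSMUSG00000073411, chromosome 17, 35262730 to 35267499) was at 13.8, 14.2 and 14.0 FPKM in Myrf-kd and at 15.1, 15.3 and 15.8 FPKM in WT. Each group was tight and the groups did not overlap, at 582 to 818 fragments per library. The fitted level of H2-D1 was 89.7% of WT, with an interval from 80.2% to 100.4% (log2 fold change −0.16 ± 0.07 SE, edgeR adjusted p = 0.675). H2-K1 was at 4.87, 4.67 and 3.94 FPKM in Myrf-kd and at 5.04, 4.58 and 4.78 FPKM in WT, and overlapped.

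Class I heavy chain genes resemble each other closely, so fragments may be shared among them. The sum of 8 heavy chain genes (H2-K1, H2-D1, H2-Q4, H2-Q6, H2-Q7, H2-T22, H2-T23 and H2-M3), formed after their values were seen, was 25.5, 25.7 and 24.4 FPKM in Myrf-kd and 27.5, 27.2 and 28.7 FPKM in WT. The groups did not overlap in this sum, with means of 25.2 ± 0.698 and 27.8 ± 0.758 FPKM. H2-D1, already without overlap by itself, made up the larger part, with means of 14.0 and 15.4 FPKM. The sum is therefore not separate support. H2-T22 was at 3.08 ± 0.238 FPKM in Myrf-kd, against 3.73 ± 0.160 FPKM in WT (log2 fold change −0.29 ± 0.11 SE, edgeR adjusted p = 0.666).

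The rest of the pathway was taken from lists of 115 further genes found in the table, of which 49 were tested. In the edgeR test 0 of them passed, and 22 had higher and 27 lower estimates (median log2 fold change −0.022). At an unadjusted p under 0.05 there were 2 of the 49, against 7.49% of all genes tested. The groups did not overlap in 6 of the 49, against 14.5% of all genes tested. All 10 interferon ligand genes were below the filter, and no ligand gene had more than 6 units in any library, about 1 to 2 fragments.

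Of the receptor chains for type I interferon, Ifnar1 was at 8.32 ± 0.582 FPKM in Myrf-kd, against 7.46 ± 0.996 FPKM in WT, and Ifnar2 at 1.89 ± 0.312 and 1.68 ± 0.295 FPKM. Jak1 was at 25.8 ± 2.72 and 27.8 ± 0.973 FPKM, Tyk2 at 2.83 ± 0.0873 and 2.71 ± 0.217 FPKM, and the interferon gamma receptor chain Ifngr2 at 4.88 ± 0.685 and 4.26 ± 0.268 FPKM. These 5 genes overlapped between the groups. Of the 8 tested receptor and kinase genes, 5 had higher and 3 lower estimates.

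Among the sensing adaptors, 5 of 6 tested genes had higher and 1 a lower estimate. The lower one, Ticam1, the adaptor of the endosomal RNA receptor Tlr3, was at 1.93, 1.72 and 1.12 FPKM in Myrf-kd and at 2.29, 2.14 and 2.61 FPKM in WT. The groups did not overlap (log2 fold change −0.58 ± 0.22 SE, edgeR adjusted p = 0.666). Myd88, the adaptor of most other Toll-like receptors, was higher without overlap, at 3.39 ± 0.341 FPKM in Myrf-kd, against 2.83 ± 0.264 FPKM in WT. The kinase gene Tbk1, which activates interferon regulatory factors, overlapped, at 11.6 to 12.65 FPKM in Myrf-kd and 9.74 to 12.09 FPKM in WT.

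Negative regulators had 2 higher and 3 lower estimates of 5 tested, with Irf2 at 2.99 ± 0.258 FPKM in Myrf-kd, against 2.75 ± 0.387 FPKM in WT. The phosphatase gene Ptpn11 was at 24.0 ± 1.90 and 24.8 ± 1.55 FPKM and Pias1 at 17.0 ± 2.25 and 17.6 ± 0.370 FPKM. Of 40 further interferon-stimulated genes 10 were tested, 4 with higher and 6 with lower estimates. Samhd1, a nucleotide hydrolase that restricts viruses, lay higher without overlap, at 3.95 to 4.96 FPKM in Myrf-kd and 3.675 to 3.91 FPKM in WT. The secreted glycoprotein gene Lgals3bp lay lower without overlap, at 1.91 ± 0.0927 FPKM in Myrf-kd, against 2.20 ± 0.0781 FPKM in WT.

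Of the 17 further class I pathway genes 12 were tested, with 2 higher and 10 lower estimates and a median log2 fold change of −0.10. The peptide-loading chaperone gene Pdia3 was at 63.5 ± 7.78 FPKM in Myrf-kd, against 71.9 ± 8.00 FPKM in WT, and Rfx5, a subunit of the factor that binds class I and class II promoters, at 6.21 ± 0.517 and 5.50 ± 0.216 FPKM. Nlrc5, the class I transactivator, was below the filter at 0.0610 ± 0.0139 and 0.0480 ± 0.00848 FPKM. Of 9 class II pathway genes 1 was tested, the cathepsin gene Ctss, which is also on the microglia list, at 6.69 ± 0.568 FPKM in Myrf-kd, against 7.78 ± 0.762 FPKM in WT. Myrf-kd 3 was the highest library in 5 and the lowest in 4 of the 18 tested members, where it was highest in 25.7% and lowest in 25.2% of all genes. The median log2 level of the 18 tested members against the WT mean lay between −0.092 (Myrf-kd 2) and 0.044 (WT 1).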

How the data were processed

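Retinal RNA was sequenced in 3 Myrf-kd and 3 WT libraries, grouped by sample title. The authors deposited FPKM and counts for 55450 genes in 1 table, per the file headers. The submitters' processing notes name the build GRCm38 and the tools StringTie 1.3.0, HISAT2 2.0 and Bowtie 0.12.2, without saying what each did. The deposited counts were taken as estimated counts, because in genes with a single transcript and over 200 units they stayed within 1% of a fixed multiple of FPKM times transcript length (100% of such genes in each library). The sources used here do not give whether strand was kept. At 4 units a fragment, depth ran from 12673773 to 17574628 fragments.

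Genes with a mean of at least 1 FPKM were tested on the counts with edgeR 4.0.16 (TMM, quasi-likelihood, genotype only, two-sided, Benjamini-Hochberg over 13673 genes, threshold 0.05). SE is the log2 fold change over the root of F. Alternatives used DESeq2 1.42.0, limma 3.58.1 on log2(FPKM + 1) or log2(FPKM + 0.1), other scalings and filters, counts divided by 4, sex as a covariate, the replicate number as a block, and each library left out in turn. The test was tried on simulated data. Library pairs within a group differed beyond sampling noise (chi-square per degree of freedom at least 18.5). The members, lists and roles were chosen with earlier results of these data known. Every member is given with its level, and full statistics for up to 5 members per direction with the smallest p. Of each further list up to 3 genes with the smallest p are named, and Ifnar1, Ifnar2, Jak1, Tyk2 and Nlrc5 always. Values by library of Ifih1, Irf7, Ifit1, Ifit2, Rsad2, Gbp3, Tap2, H2-K1 and Ticam1, and the level of Gnat1, were added after they were seen. Some planned genes are not reported here.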

Additional observations from a re-analysis of the deposited data

How the results depend on the processing

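Over the alternatives run, 0 members passed by any tool, and the smallest adjusted p of a member was 0.248 (Ifit3, DESeq2). The 12 members other than Irf7, Isg15, Bst2, Oasl2, Psmb10 and Tap2 kept their direction throughout. Members at an unadjusted p under 0.05 numbered 3, beside 1024 of all 13673 genes. They became 5 with no filter on FPKM (31 members tested), beside 1574 of 31233 genes. When a library was left out they numbered 1 to 2 (1 without WT 1 and 1 without WT 3). The count over all 13673 genes then ran from 525 (without WT 3) to 1263 (without Myrf-kd 1), and was 1188 without WT 1. Member and whole-table counts did not always move in the same direction. Whether these changes are particular to the members was not tested. With the replicate number as a block there was 1 such member, beside 702 of all 13673 genes, and 0 genes in all passed. The members' median log2 fold change of 0.022 became −0.022 with no filter, −0.075 at a mean FPKM of at least 0.1 (27 members), −0.10 at 5 (5 members), and −0.032 to 0.083 over omissions of a library. Members without overlap numbered 6, then 3 at a mean FPKM of at least 5, and 6 to 8 over the omissions. The share of all genes without overlap was not computed for these alternatives. Groups separate more readily with a library left out, so the counts over the omissions cannot be set against the count of 6. Genes passing over the whole table numbered 6, then 53 by DESeq2, 2 at a mean FPKM of at least 5, and 9 to 16 over the omissions (9 without Myrf-kd 2, 10 without Myrf-kd 1, WT 1 or WT 2, 13 without WT 3 and 16 without Myrf-kd 3). The cause was not tested.

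Omission of a library turned the direction of 12 of the genes reported. Log2 fold changes over the omissions ran from −0.21 to 0.66 for Irf7, −0.59 to 0.064 for Bst2, −0.14 to 0.27 for Isg15, −0.069 to 0.016 for Oasl2, −0.26 to 0.22 for Psmb10 and −0.089 to 0.18 for Tap2. They ran from −0.0006 to 0.28 for Ifnar2, −0.014 to 0.12 for Tyk2, −0.18 to 0.016 for Pias1, −0.21 to 0.022 for Psmb3, −0.016 to 0.10 for Psmb5 and −0.039 to 0.079 for Psmb7. Oasl2 was at 0.0011 by limma on log2(FPKM + 1) and 0.0015 on log2(FPKM + 0.1). Psmb10 was at 0.0103 by limma on log2(FPKM + 0.1) and 0.0001 with the replicate block. Same-numbered libraries deviated with correlations of −0.042, 0.082 and 0.140, and not every library correlated best with its own number, so the numbers are not read as pairs. Depth limits Oas1a, Oas2, Ifi44 and Cxcl10 most, with at most 10 fragments in any library. Other members were shallow too, among them Psmb9 with 6 to 15 and Usp18 with 14 to 21 fragments per library.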
